A study of Homo sapiens with 3 samples.

Results

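The 10 genes described here encode parts of the machinery that licenses origins of DNA replication: the helicase subunits MCM2, MCM3, MCM4, MCM5, MCM6 and MCM7, the helicase loaders CDC6 and CDT1, and the origin recognition subunits ORC1 and ORC6. They were chosen by name, and all 10 were found, 1 row each, among the 57820 genes of both deposited tables. RNA was immunoprecipitated from ACHN, a long-established line of human renal carcinoma cells, which stably expressed Flag-tagged MEX3A, an RNA-binding protein. Per the labels, 1 sample each holds the input, the RNA brought down by control IgG and the RNA brought down by the Flag antibody. The IgG and Flag libraries are compared below; both come from the overexpressing cells, after crosslinking with 0.3% formaldehyde and selection of mRNA on oligo(dT) beads. No line without the tagged protein is among the labelled samples, and the input was not analysed here. A ratio therefore does not separate recovery by the antibody from other differences between the 2 precipitates.

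Before a cell copies its DNA, the origin recognition complex marks origins and, with CDC6 and CDT1, loads pairs of MCM hexamers built of 1 copy each of MCM2, MCM3, MCM4, MCM5, MCM6 and MCM7. The hexamers stay inactive until the kinases of S phase and the factors CDC45 and GINS turn them into moving helicases. Most of these genes are transcribed at the G1/S border under E2F, the transcription factor family that the RB protein restrains, and the series title places MEX3A at that transition and in that pathway. Which of these mRNAs came down with MEX3A is the question that the Flag precipitate addresses.

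The IgG library held 3412864 counts and the Flag library 5498124. Levels are given as CPM, the counts per 1000000 counts of a library's total, and the Flag over IgG ratio of CPM carries an exact 95% Clopper-Pearson interval, which covers counting error only. A gene was called enriched where that interval lay wholly above 2 and depleted where it lay wholly below 0.5, among the 10811 genes whose counts in the 2 libraries summed to 20 or more. With 1 library per group there is no replicate check and no test, and a call describes these libraries. Mitochondrially encoded RNAs took up 33.0% of Flag and 8.93% of IgG counts. The median gene had a ratio of 1.93, so a ratio of 1 is not a neutral point. With mitochondrial and the 10 most abundant genes taken out of the totals, the median log2 ratio of all genes was 0.71, against 0.95 with full totals. The cell line label was checked against 8 renal epithelial markers, of which 7 had enough counts and CDH6 had 0 in both libraries; the transcription factor PAX8, which marks renal epithelium, had 1049 IgG and 2532 Flag counts. The leukocyte markers PTPRC, CD3E and CD14 and the endothelial marker CDH5 had 0 counts in both libraries, and the endothelial marker VWF had 0 and 9.

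The licensing genes were not enriched in the Flag library as a group. MCM4, CDC6 and ORC6 were enriched in the Flag library, 3 of 10 genes against 28.7% of all genes compared, so the share was close to that of all genes. None of the 10 was depleted, against 1.32% of all genes. The other 7 lay below the median gene, and the median log2 ratio of the 10 was 0.06, against 0.95 over all genes. Within the hexamer, MCM4 stood apart from its 5 partners, and each loader and recognition pair also differed: CDC6 from CDT1 and ORC6 from ORC1.

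**Figure D1:**
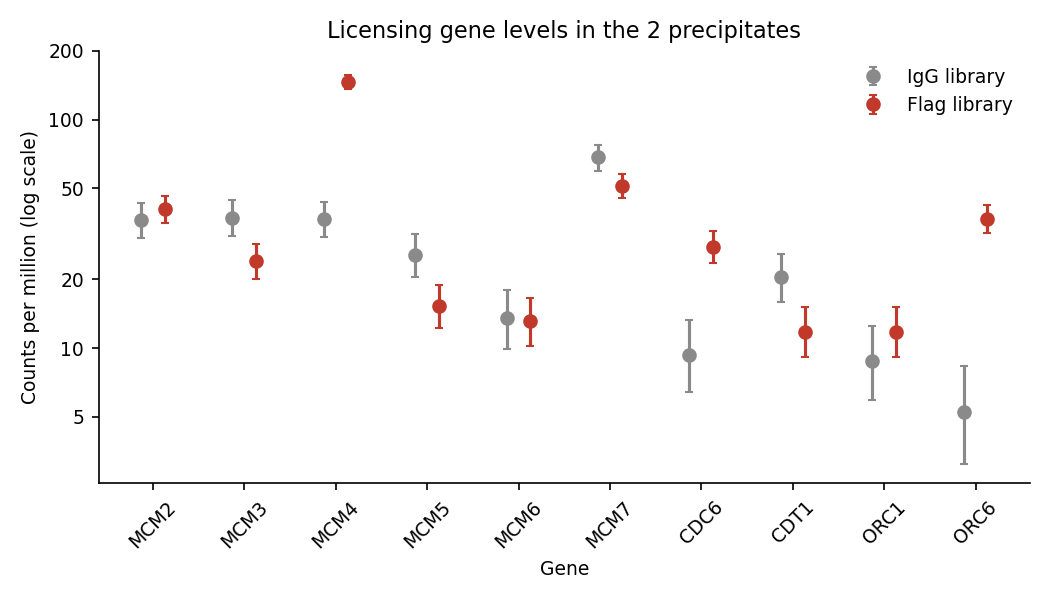
Level in CPM on a log axis of the 10 licensing genes in the IgG library (grey) and the Flag library (red), 1 library each, with exact 95% Poisson intervals for counting error. The intervals of the 2 libraries are apart for MCM4, CDC6 and ORC6, which are higher in the Flag library. They are also apart for MCM3, MCM5, MCM7 and CDT1, which are lower there, and overlap for MCM2, MCM6 and ORC1. The ratio intervals of these 3 and 4 genes lay above and below 1, as did those of 6282 and 972 of the 10811 genes compared.

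Part of the genes share a promoter feature. Most of them are transcribed under E2F, as said above, so matches to its motif were likely from the choice of genes. The E2F recognition motif was searched in the 250 bases before each transcription start in RefSeq (GRCh38.p14), in its forms TTTCCCGC, TTTCGCGC, TTTGCCGC and TTTGGCGC, on both strands. Of 8 genes with an entry, MCM3, MCM6, MCM7 and CDT1 held at least 1 match, against 2.79% of all 35116 windows and 3.4% of the 27305 genes in that table. Other replication genes carried it often as well, with a match in 8 of the 31 companion genes searched, a set described with its ratios after the licensing genes. The stretches are printed 5′ to 3′ in the direction of each gene, with the matches in capitals. They are shown because the series title names E2F; a match is a run of letters and not a measured binding site. They lie at chr2:135876508-135876609 (minus strand) for MCM6, chr6:52284895-52284930 (minus strand) for MCM3, chr7:100101563-100101598 (minus strand) for MCM7 and chr16:88803740-88803775 (plus strand) for CDT1.

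MCM6: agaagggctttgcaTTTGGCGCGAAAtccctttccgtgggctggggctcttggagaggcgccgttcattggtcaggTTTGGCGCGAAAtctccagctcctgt

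MCM3: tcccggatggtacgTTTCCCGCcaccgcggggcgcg

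MCM7: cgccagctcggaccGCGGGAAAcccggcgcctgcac

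CDT1: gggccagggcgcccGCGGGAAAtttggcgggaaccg

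MCM6 carried the same run of 12 bases 2 times, 50 bases apart, and each run holds a match on each strand, which overlap by 4 bases. It was the only window of the table with at least 4 matches. MCM7 held a further match 9 bases before its start. The 4 genes with a match had CPM ratios of 0.576 to 0.972, and MCM2, ORC1, CDC6 and ORC6, without a match in this window, had ratios of 1.12 to 6.97. No match means only that none of the forms searched lay in this window. The ratios of the other genes with a match were not compared, so no conclusion is drawn from this split of a few genes. MCM4 (3.99) and MCM5 (0.599) had no entry and could not be placed on either side. The precipitate holds RNA and not promoters, and whether the motif has any part in these ratios was not tested.

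MCM4, a catalytic subunit of the hexamer, had 125 counts in the IgG library and 803 in the Flag library, or 36.6 and 146 CPM. Its ratio was 3.99 (95% interval 3.30 to 4.85), and 77.5% of the genes compared had a lower ratio. The intervals of its 2 levels were apart, but the size depended on the scale: the ratio was 2.33 with TMM scaling, which sets library factors after trimming the most extreme genes, and 1.86 by the authors' TPM, a level per transcript length. Neither was called.

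MCM2, the subunit that also binds histones and is a main target of the CDC7 kinase, had 124 IgG and 223 Flag counts, or 36.3 and 40.6 CPM, with a ratio of 1.12 (0.892 to 1.40). MCM6 had 46 and 72 counts, or 13.5 and 13.1 CPM, with a ratio of 0.972 (0.662 to 1.44). For these 2 subunits the intervals included 1 but lay wholly below the ratio of the median gene, 1.93. With TMM scaling both lay below 1, at 0.651 (0.520 to 0.817) for MCM2 and 0.566 (0.386 to 0.839) for MCM6.

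MCM7, a catalytic partner of MCM4, had 233 IgG and 282 Flag counts, or 68.3 and 51.3 CPM, a ratio of 0.751 (0.629 to 0.898). MCM3, the neighbour of MCM5 in the ring, had 127 and 132 counts, or 37.2 and 24.0 CPM, a ratio of 0.645 (0.502 to 0.830). MCM5 had 87 and 84 counts, or 25.5 and 15.3 CPM, a ratio of 0.599 (0.439 to 0.818). All 3 intervals lay below 1, as did those of 972 of the 10811 genes compared, and none lay wholly below 0.5. Only 12.4%, 8.49% and 6.85% of the genes compared had lower ratios than MCM7, MCM3 and MCM5.

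The ratios of the 6 subunits were set against each other in all 15 pairs, as quotients with exact 95% intervals that again cover counting error only. All 5 pairs with MCM4 had intervals above 1, with quotients from 3.57 against MCM2 (2.64 to 4.82) to 6.64 against MCM5 (4.59 to 9.62). A scaling of the libraries cancels in these quotients, while the length correction of TPM does not: by TPM the quotients of MCM4 ran from 1.61 against MCM2 to 3.27 against MCM3. Of the 10 pairs without MCM4, 3 had intervals above 1, all of them with MCM2: against MCM3 (1.73, 1.23 to 2.43), MCM5 (1.86, 1.26 to 2.75) and MCM7 (1.49, 1.11 to 1.99). By TPM the quotients of MCM2 were 2.03 against MCM3, 1.18 against MCM5 and 1.37 against MCM7. By counts, MCM3, MCM5, MCM6 and MCM7 could not be told apart from each other at this depth. Their TPM quotients, which carry no interval, ran from 0.583 (MCM3 over MCM5) to 1.67 (MCM6 over MCM3).

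The summed ratio of the hexamer turned on MCM4. The 6 subunits together had 742 IgG and 1596 Flag counts, a ratio of 1.34 (1.22 to 1.46), and without MCM4 they had 617 and 793 counts, a ratio of 0.798 (0.717 to 0.888). MCM4 made up 16.8% of the counts of the 6 subunits in the IgG library and 50.3% in the Flag library, whereas MCM7 made up 31.4% and 17.7%. Per length the shift was smaller, with MCM4 at 16.0% and 28.2% of the summed TPM and MCM7 at 27.0% and 21.5%.

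CDC6, the ATPase that joins the origin recognition complex to recruit the helicase, had 32 IgG and 153 Flag counts, or 9.38 and 27.8 CPM. Its ratio was 2.97 (2.02 to 4.49), with the lower bound just inside the threshold of 2. CDT1, which escorts the hexamer to the origin and is destroyed in S phase, had 70 and 65 counts, or 20.5 and 11.8 CPM, a ratio of 0.576 (0.405 to 0.820). The intervals of the 2 loaders were apart, and CDT1 had the lowest ratio of the 10 genes while CDC6 had the third highest.

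ORC6, the smallest subunit of the origin recognition complex, had the highest ratio of the 10 genes. It had 18 IgG and 202 Flag counts, or 5.27 and 36.7 CPM, a ratio of 6.97 (4.30 to 12.0), and 90.9% of the genes compared had a lower ratio. ORC1, the largest subunit and an ATPase, had 30 and 65 counts, or 8.79 and 11.8 CPM, a ratio of 1.34 (0.860 to 2.15). The intervals of ORC1 and ORC6 were apart, and that of ORC1 included 1.

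**Figure D2:**
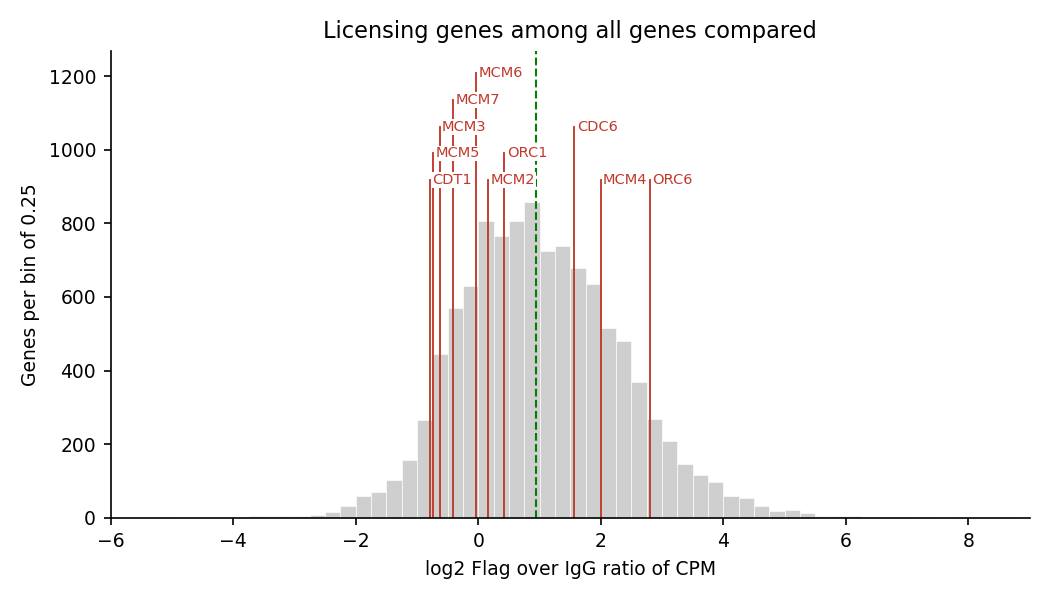
Histogram of the log2 Flag over IgG ratio of CPM for the 10811 genes compared, in bins of 0.25, with the 10 licensing genes as red lines and the median gene, at 0.95, as a dashed green line. The red lines of CDC6, MCM4 and ORC6 lie to the right of the median gene and the other 7 to its left.

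Where whole libraries are scaled, the position of each gene relative to the others is fixed by its counts, but where 0 lies depends on the scaling. TMM scaling lowered every log2 ratio by 0.78. ORC6 was then the only enriched gene of the 10, at 4.06-fold (2.51 to 6.99), against 12% of all genes. MCM3 (0.376), MCM5 (0.349) and CDT1 (0.336) were then depleted, 3 of 10 against 6.12% of all genes. MCM4 (2.33, 1.92 to 2.83) and CDC6 (1.73, 1.18 to 2.62) stayed above 1 with TMM scaling without a call, and the ratios of MCM2 and ORC1 turned to below 1, at 0.651 and 0.784. With mitochondrial and the 10 most abundant genes taken out of the totals, MCM4 (3.39, 2.80 to 4.12) and ORC6 (5.92, 3.65 to 10.2) stayed enriched, and CDC6 (2.52, 1.71 to 3.81) was not called.

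The authors' TPM gave a different size for some of the genes. With 0.1 added to both libraries, ORC6 (6.36) and CDC6 (4.61) were past 2-fold higher in the Flag library, 2 of 10 against 44.2% of all genes. CDT1 (0.460) was past 2-fold lower, 1 of 10 against 6.59%. MCM4 went from 20.8 TPM in the IgG library to 38.8 in the Flag library, a ratio of 1.86, and was not past 2-fold. MCM5 had 12.8 and 12.5 TPM, a ratio of 0.977, where its CPM ratio was 0.599.

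These gaps between scales go with the deposited transcript lengths, which are means over a gene's isoforms weighted by their estimated abundance in each library. For MCM4 that mean was 1932 bases in the IgG library and 3911 bases in the Flag library. The effective length, the part of a transcript on which a fragment can start, was 2.14 times as long, and TPM divides by it. MCM5 went the other way, from 2165 to 1401 bases, and CDC6 likewise, from 3072 to 2001 bases. ORC1 had 3157 bases in both libraries and MCM6 3650 and 3736, and for these genes the scales gave nearly the same ratio (1.33 by TPM for ORC1 and 0.949 for MCM6). In all, 3 of the 10 genes changed in effective length by more than 1.5-fold, against 28.6% of the 10193 protein-coding genes compared, a share close to that of all genes. The lengths are estimates from 84 to 803 counts per library for MCM4 and MCM5 and from as few as 32 for CDC6, and no isoform counts were analysed here.

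**Figure D3:**
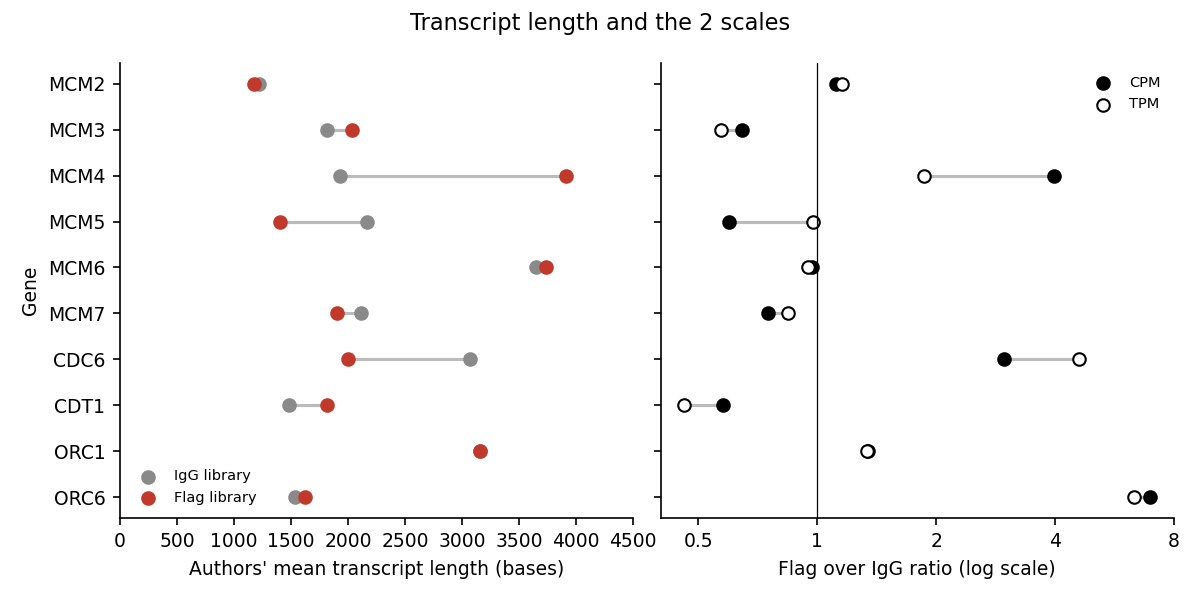
Left, the authors' abundance-weighted mean transcript length in bases of each licensing gene in the IgG (grey) and Flag (red) library. Right, the Flag over IgG ratio on a log axis from CPM (filled) and from TPM with 0.1 added (open), 1 library per group. MCM4 has the largest gap in both panels, 1932 against 3911 bases and 3.99 against 1.86.

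Per length, the helicase subunits differed widely in level within each library. In the IgG library MCM7 (35.1 TPM) and MCM2 (35.0 TPM) came first, with overlapping counting intervals, followed by MCM3 (22.6), MCM4 (20.8), CDT1 (15.7) and MCM5 (12.8), each overlapping the next. ORC6 (3.89), MCM6 (3.85), CDC6 (3.22) and ORC1 (2.93) formed the low end and could not be ordered. In the Flag library MCM2 (40.5 TPM) and MCM4 (38.8) came first and overlapped, then MCM7 (29.6) and ORC6 (25.3), which overlapped, then CDC6 (15.2), MCM3 (12.8) and MCM5 (12.5). CDT1 (7.18) stood alone, and ORC1 (3.94) and MCM6 (3.65) overlapped at the low end. ORC6 and CDC6 thus moved from the low end of the order into its middle, while MCM6 stayed low, at 2.96% of the summed TPM of the 6 helicase subunits in the IgG library and 2.65% in the Flag library.

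**Figure D4:**
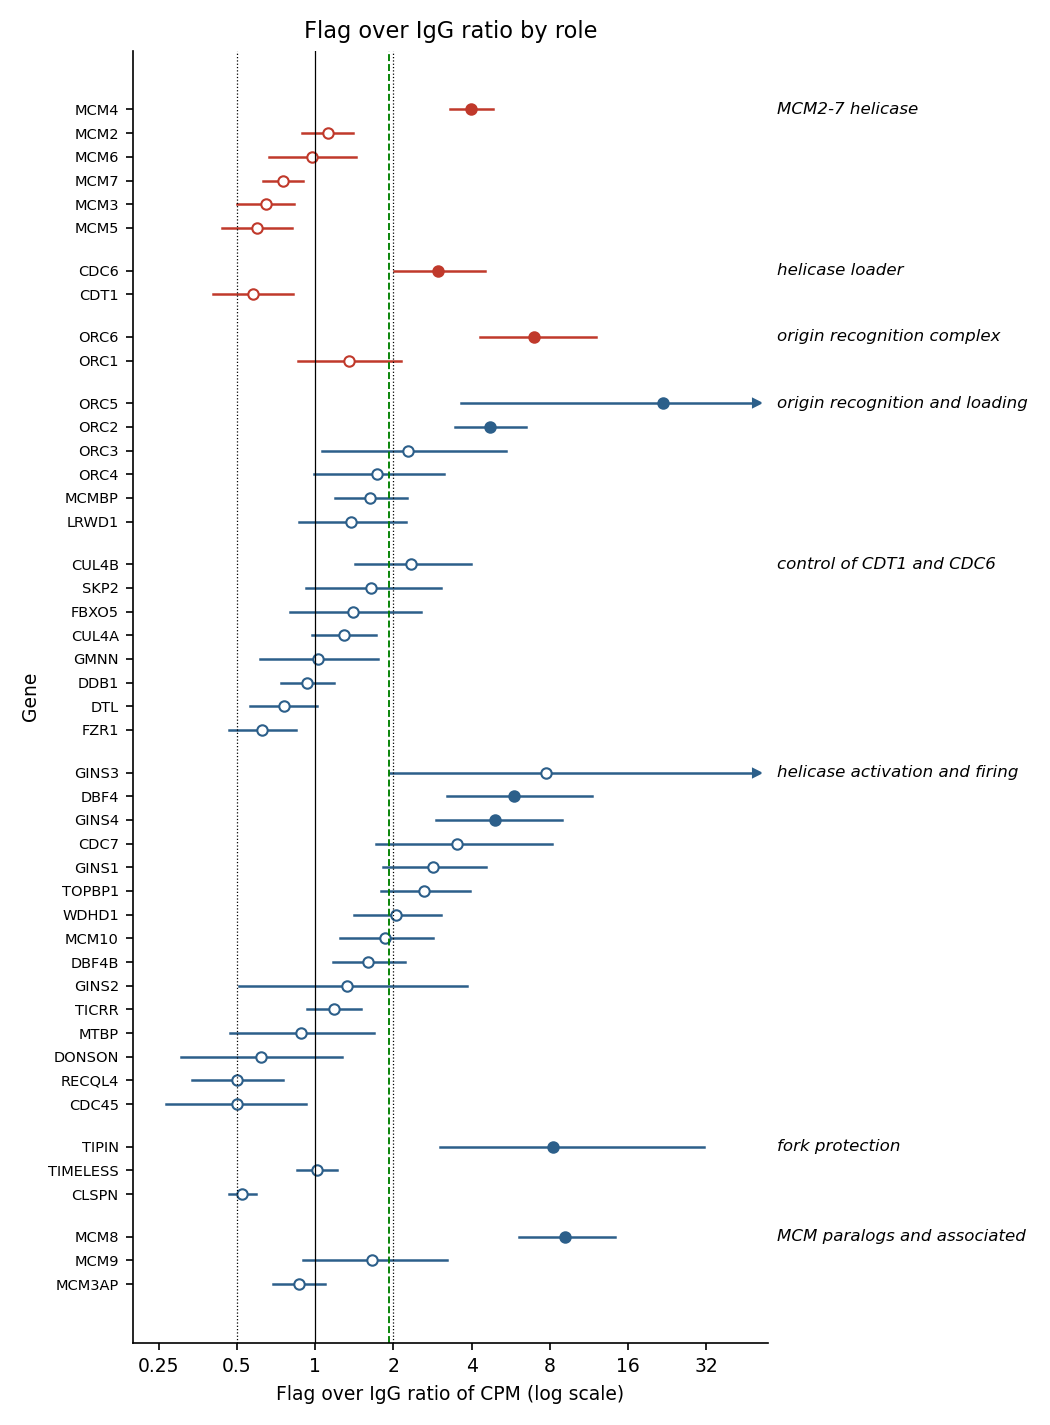
Flag over IgG ratio of CPM on a log axis with exact 95% counting intervals for the 10 licensing genes (red) and 35 companion genes (blue), grouped by role, 1 library per group. Filled points were called enriched, arrowheads mark intervals that run past the axis, dotted lines stand at 0.5 and 2, the solid line at 1 and the dashed green line at the median gene (1.93). Enriched genes occur in 4 of the 5 companion groups, and none of the intervals lies wholly below 0.5.

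The licensing genes were set beside 36 companion genes of origin recognition, licensing control, helicase activation and fork protection, of which 35 had enough counts. Of these, 6 were enriched and none depleted, against 28.7% and 1.32% of all genes, and their median log2 ratio was 0.71. With TMM scaling 3 were enriched (ORC2, ORC5 and MCM8) and 3 depleted (FZR1, RECQL4 and CLSPN), against 12% and 6.12% of all genes. By TPM 12 were past 2-fold higher and 2, CDC45 (0.234) and DONSON (0.349), past 2-fold lower, against 44.2% and 6.59% of all genes.

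Among the other subunits of the origin recognition complex, ORC2 and ORC5 were enriched like ORC6. ORC2 had 48 IgG and 363 Flag counts, a ratio of 4.69 (3.47 to 6.48). Its mean transcript length was 1280 bases in the IgG library and 3982 in the Flag library, and its TPM ratio was 1.35. ORC5 had 1 and 35 counts, a ratio of 21.7 (3.65 to 882). ORC3 (2.28, 1.07 to 5.41), ORC4 (1.72, 0.989 to 3.14) and the ORC-associated gene LRWD1 (1.37, 0.866 to 2.23) were not called. The 6 ORC subunits thus ran from 1.34 for ORC1 to 21.7 for ORC5, the latter from 1 IgG count. ORC1 and ORC4 lay below the median gene (1.93). None of the 6 had a ratio below 1, but only 2374 of the 10811 genes compared had one.

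Genes that control CDT1 and CDC6 showed no enrichment call among 8, against 28.7% of all genes. GMNN, which encodes geminin, the inhibitor of CDT1, had 26 IgG and 43 Flag counts, a ratio of 1.03 (0.617 to 1.74). CUL4B, a scaffold of the ubiquitin ligase that destroys CDT1 in S phase, had the highest ratio of this group, 2.34 (1.43 to 3.98). FZR1, which encodes the CDH1 activator of the anaphase-promoting complex, had the lowest, 0.627 (0.465 to 0.846).

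In the group of helicase activation and origin firing, 2 of 15 genes were enriched, against 28.7% of all genes. DBF4, the regulatory subunit of the CDC7 kinase that activates the MCM hexamer, had 12 IgG and 113 Flag counts, a ratio of 5.85 (3.22 to 11.6). GINS4, of the tetramer that joins the active helicase, had 16 and 127 counts after rounding of fractional counts, a ratio of 4.93 (2.92 to 8.88). Its partner GINS3 had the highest ratio of the group, 7.76 (1.93 to 67.6), from 2 and 25 counts, and was not called. CDC45, the other partner of the active helicase, had the lowest, 0.501 (0.268 to 0.927), from 26 and 21 counts.

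TIPIN, of the fork protection complex, was enriched with 4 IgG and 53 Flag counts, a ratio of 8.22 (3.03 to 31.3), whereas TIMELESS, its binding partner, had 213 and 349 counts and a ratio of 1.02 (0.855 to 1.21). The intervals of these 2 partners were apart. CLSPN, which encodes the checkpoint adaptor claspin, had 591 and 500 counts, a ratio of 0.525 (0.465 to 0.593). Among the MCM relatives, MCM8, whose protein acts with MCM9 in repair by homologous recombination, was enriched with 25 and 367 counts, a ratio of 9.11 (6.07 to 14.3). MCM9 had 15 and 40 counts and a ratio of 1.66 (0.895 to 3.23), an interval apart from that of MCM8. MCM3AP, named for its contact with MCM3, had a ratio of 0.866 (0.687 to 1.09), with fractional counts. MCMDC2 had 2 and 5 counts and did not enter.

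The strand setting of the counting is not given in the sources used here, so reads of a gene and of an overlapping neighbour on the other strand cannot be told apart. In the RefSeq gene table, of GRCh38.p14, ORC1 overlaps PRPF38A, a splicing factor gene that was enriched at 4.58-fold (2.56 to 8.92). Summed with it, ORC1 had a ratio of 2.32 (1.65 to 3.33), which describes the 2 genes together. Both genes had whole counts, so no split of reads between them is seen. MCM7 overlaps AP4M1, which had 10 IgG and 41 Flag counts after rounding of fractional counts. The ratio of AP4M1 was 2.545 (1.25 to 5.70), without a call. Summed with it, MCM7 had a ratio of 0.825 (0.696 to 0.979). MCM7 also carries MIR25, MIR93 and MIR106B in its introns, which had 0 counts in both libraries. MCM4 lies within 1 kb of PRKDC, which had a ratio of 1.73 (1.59 to 1.90), below the interval of MCM4. ORC6 lies within 1 kb of VPS35, with a ratio of 1.63 (1.29 to 2.08), below the interval of ORC6. The neighbours TPRA1 of MCM2 (0.696), APRT of CDT1 (0.944) and COPS6 of MCM7 (2.27) were not called. All 10 licensing genes had whole counts in both libraries, within 0.01, so the counts show no reads split with another gene.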

How the data were processed

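RNA immunoprecipitates of ACHN cells were measured by sequencing, with 1 IgG and 1 Flag library; the input library was not analysed here. Per the file headers, the authors deposited expected counts, TPM, FPKM and mean and effective lengths in RSEM's gene-level layout; FPKM was not used. The submitters' processing notes name STAR and RSEM, with no version, and the builds GRCh37 and hg19. For the annotation release and read filters, the sources used here give nothing.

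Expected counts were rounded and divided by library totals. Ratios, Clopper-Pearson and Poisson intervals and conditional odds ratios were computed with scipy 1.17.1 and tested on simulated counts. A count of 0 was set to a floor of 3 counts, which is 0.879 CPM for IgG and 0.546 CPM for Flag; no licensing gene needed it. Since PCR copies cannot be told from separate molecules here, intervals and floors hold for counting error alone. No p-value was computed. Alternatives were TMM (edgeR 4.0.16) and DESeq2 1.42.0 median-of-ratios scaling, totals with mitochondrial and the 10 top genes taken out, other count minimums, TPM, 0.5 counts added, whole counts only, thresholds of 1.5-fold and 4-fold and a 99% interval; sums with overlapping genes were added after seeing the data.

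Genes and lists were chosen with earlier results of these data known. All 10 licensing genes are named; of each companion group, those called, the highest and lowest ratio and those at 0. Other companions are named where they complete a complex or changed call, chosen after their values were seen. RefSeq sequences (GRCh38.p14) were matched by symbol for 8 of 10 genes.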

Additional observations from a re-analysis of the deposited data

How the results depend on the processing

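No licensing gene changed sides from enriched to depleted under any alternative run. TMM scaling gave 1 enriched and 3 depleted licensing genes and 3 enriched and 3 depleted companion genes (12% and 6.12% of all genes). The median log2 ratio of the licensing genes was then -0.72, against 0.17 over all genes. Median-of-ratios scaling gave the same counts (1 and 3, 3 and 3) and a median of -0.73, with 11.7% of all genes enriched and 6.24% depleted. Calls by TPM rest on the ratio alone, without an interval. They gave 1 depleted licensing gene and 2 depleted companion genes at either pseudocount. Enriched companion genes numbered 10 at a pseudocount of 1 (37.7% of all genes enriched, 4.96% depleted) and 12 at 0.1 (44.2% and 6.59%). A threshold of 1.5-fold gave 10 enriched and 1 depleted companion gene (40% and 2.76% of all genes), and one of 4-fold gave 1 enriched licensing gene and 1 enriched companion gene (8.55% of all genes). ORC6 kept its call under all of the alternatives run on it. CDC6 lost its call with both scalings, at 4-fold, with the 99% interval and with mitochondrial and the 10 top genes taken out of the totals (2.52, 1.71 to 3.81); MCM4 lost its call with both scalings, with TPM and at 4-fold. At least 100 counts left out ORC1. Of 121 values of single licensing genes under alternatives, 10 lost a call and 8 gained one. With 1 library per group no replicate could be left out, and depth limits the genes with under 50 IgG counts (MCM6, CDC6, ORC1 and ORC6) most.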
